A study of Mus musculus with 16 samples.

Results

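The proteasome subunit genes were taken from the gene expression table by symbol: every row that starts with Psma, Psmb, Psmc or Psmd followed by a digit, without the inducible subunits Psmb8 and Psmb9. The rule found 38 of the 19999 genes of the table, and 37 of them encode subunits or dedicated assembly factors of the proteasome. The remaining row, Psmc3ip, encodes a recombination cofactor named for its binding to PSMC3, and its 754 unique molecular identifiers (UMIs, each one captured RNA molecule) over all nuclei were left out of the sums and medians below. The table is a single-nucleus RNA sequencing (snRNA-Seq) survey of the prefrontal cortex (PFC) of 16 male mice aged 22 weeks, made to ask how a history of repeated alcohol intoxication acts together with a genetic susceptibility to Alzheimer's disease. The 3xTg-AD mouse carries mutant human APP and tau transgenes and a knock-in of mutant presenilin. The 3xTg-AD mice were on a B6;129 background, and the WT mice were also of the mixed strain B6;129. Alcohol groups went through cycles of chronic intermittent ethanol (CIE) vapor, and were injected with ethanol and pyrazole, an inhibitor of alcohol dehydrogenase, before they entered the chambers. Control groups received pyrazole in saline and breathed air, and mice of all 4 groups were trained in the Morris water maze before the tissue was frozen. The paper places tissue collection days after the maze, with the last vapor exposure earlier still. Alcohol below thus means a history of exposure. The groups were WT control (mice 26, 27, 28 and 36), WT alcohol (mice 6, 7, 17 and 18), 3xTg-AD control (mice 12, 13, 14 and 21) and 3xTg-AD alcohol (mice 4, 31, 33 and 34), with 4 mice in each.

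The proteasome is the protease complex that degrades ubiquitin-tagged proteins in every cell. Its barrel-shaped core particle is built from a ring of alpha subunits (Psma), which gate the entrance, and a ring of beta subunits (Psmb), of which Psmb5, Psmb6 and Psmb7 carry the chymotrypsin-like, caspase-like and trypsin-like cutting sites. Inflammatory signals can replace these with Psmb8, Psmb9 and Psmb10, the inducible subunits of the immunoproteasome, which favors peptides for antigen presentation. The regulatory particle that caps the barrel holds a ring of ATPases (Psmc), which unfold substrates, and non-ATPase subunits (Psmd), which bind and deubiquitinate them. When proteasome activity is insufficient, the transcription factor encoded by Nfe2l1 raises the subunit genes together through antioxidant response elements (AREs) in their promoters, and loss of proteasome function is long discussed in neurodegeneration. The 37 genes were grouped by role into 7 alpha ring genes, 3 catalytic beta genes, 4 structural beta genes (Psmb1 to Psmb4), the inducible Psmb10, 6 ATPases, 11 non-ATPases, 3 assembly chaperones with a Psmd symbol (Psmd5, Psmd9 and Psmd10) and 2 subunits of other tissues (Psma8 of testis and Psmb11 of thymus).

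The upstream sequences of 3 genes on which the results turn are shown here, because Psmb5 and Psma3 were called in the group comparison below and Psmb5 and Psmb6 hold the letters of the ARE core. RefSeq promoter sequence (build GRCm38.p6) was at hand for 30 of the 37 genes. Each run is the longest stretch upstream of the gene's start that overlapped no annotated exon, written 5′ to 3′ along the gene's strand, with the motif found in capitals. Distances are counted to the RefSeq start, which can differ from the GENCODE start of the gene positions given below: the Psmb5 stretch ends next to the GENCODE start, and the RefSeq start lies 27 bases further along the gene (2 bases for Psma3). Psmb5 comes from chr14:54618023-54618245 on the minus strand, and the capitals mark an ARE core (TGACNNNGC) that ends 38 bases before the RefSeq start. Psmb6 comes from chr11:70525107-70525356 on the plus strand, and its capitals mark a GC box on the opposite strand 176 bases before the RefSeq start and an ARE core directly at it. Psma3 comes from chr12:70974373-70974620 on the plus strand, and its capitals mark a CCAAT box 134 bases before the RefSeq start.
Psmb5: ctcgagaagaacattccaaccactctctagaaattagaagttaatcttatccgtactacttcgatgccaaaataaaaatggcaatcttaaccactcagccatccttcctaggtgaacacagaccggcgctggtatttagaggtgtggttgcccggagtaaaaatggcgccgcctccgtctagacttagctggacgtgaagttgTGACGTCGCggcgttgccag
Psmb6: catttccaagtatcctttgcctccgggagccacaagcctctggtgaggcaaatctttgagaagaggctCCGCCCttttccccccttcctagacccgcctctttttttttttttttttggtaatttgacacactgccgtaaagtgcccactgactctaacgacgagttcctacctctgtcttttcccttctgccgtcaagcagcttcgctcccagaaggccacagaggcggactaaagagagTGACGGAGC
Psma3: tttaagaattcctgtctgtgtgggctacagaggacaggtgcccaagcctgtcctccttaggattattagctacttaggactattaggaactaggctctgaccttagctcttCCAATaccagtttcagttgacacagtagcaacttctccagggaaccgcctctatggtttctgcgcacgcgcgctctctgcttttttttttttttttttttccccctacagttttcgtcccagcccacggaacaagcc

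Searched on both strands in the 250 bases before the start, the ARE core TGACNNNGC stood in 5 of the 30 promoters (Psmb5, Psmb6, Psmc6, Psmd12 and Psmd9), 16.7%, beside 11.5% of 27025 genes. The match of Psmd9 lies past the GENCODE start of that gene (chr5:123169413, plus strand). The GC box GGGCGG, bound by Sp1-like factors, stood in 17 of the 30, 56.7%, beside 35.4% of all genes. CCAAT stood in 12, 40%, beside 37.5% of all genes. These matches describe letters in the window and are no evidence of a bound factor. The search counted overlapping motifs separately.

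Across 114512 nuclei the table held 216742276 UMIs, between 9622031 and 17544364 per mouse and from 4955 to 9096 nuclei per mouse. Of 112806 distinct cell barcodes, 1694 occurred in more than 1 mouse. Libraries of 3 mice stood apart: WT control mice 26 and 27 and 3xTg-AD control mouse 12 had 29047, 19430 and 17914 CPM (the standard scaling of UMIs to a common library total) of Gm42418, a transcript that overlaps ribosomal RNA repeats, beside 2059 to 4249 CPM in the other 13 mice. Calls, counts and medians below are also given without these mice where they changed the call or the direction or differed by over 1.5 times. Nuclei were clustered without the proteasome genes, and clusters were named from fixed marker genes, so that each class is glutamatergic-like, astrocyte-like and so on. All markers detected were raised in oligodendrocytes (10 of 10), microglia and perivascular macrophages (11 of 11), oligodendrocyte precursor cells (OPCs, 9 of 9), astrocytes (11 of 11) and GABAergic neurons (7 of 7), whereas the glutamatergic clusters raised 4 to 6 of 8. A further 43473 nuclei, 38.0%, stayed unassigned, most of them in clusters with few UMIs per nucleus.

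The 37 proteasome genes took 693408 UMIs, which was 6.06 per nucleus and 3199 CPM. Psma3, an alpha ring subunit, had the highest count (67122 UMIs, 309 CPM averaged over mice), followed by Psmd4, a ubiquitin receptor of the regulatory particle (34160 UMIs, 157 CPM), and the ATPase Psmc3 (30814 UMIs, 141 CPM). At the other end, Psmd10, an assembly chaperone, had 3005 UMIs, and the testis subunit Psma8 and the thymus subunit Psmb11 had 47 and 44 UMIs and passed the count filter in no class. The other 35 genes passed it in all nuclei together and in glutamatergic neurons, GABAergic neurons and astrocytes, 33 passed in oligodendrocytes and microglia, 26 in OPCs and 5 in endothelial cells, which gave 202 pairs of gene and class. A count filter favors genes with a high level in some group, so that the counts of tested genes below are not counts of all members.

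The summed level of the proteasome genes differed in a steady order between cell classes. Averaged over 16 mice, glutamatergic neurons had the lowest summed level, 2520 CPM ± 193 (SD), and GABAergic neurons had 3004 CPM ± 249. Astrocytes had 3186 CPM ± 283, OPCs 3268 CPM ± 353 and oligodendrocytes 3473 CPM ± 323. Vascular leptomeningeal cells (VLMCs) had 3737 CPM ± 596 over 11 mice, microglia 4057 CPM ± 446 and endothelial cells 5102 CPM ± 869 over 15 mice. Glial and vascular classes thus took between 1.26 ± 0.05 (astrocytes) and 2.01 ± 0.30 (endothelial cells) times the level of glutamatergic neurons of the same mouse, and GABAergic neurons took 1.19 ± 0.06 times that level, in 16 of 16 mice. Neighbours in this order were not all separated: astrocytes stood below OPCs in 10 of 16 mice, oligodendrocytes below VLMCs in 8 of 11 and OPCs below oligodendrocytes in 13 of 16, whereas microglia stood below endothelial cells in 14 of 15 and GABAergic neurons below astrocytes in 14 of 16.

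**Figure D1:**
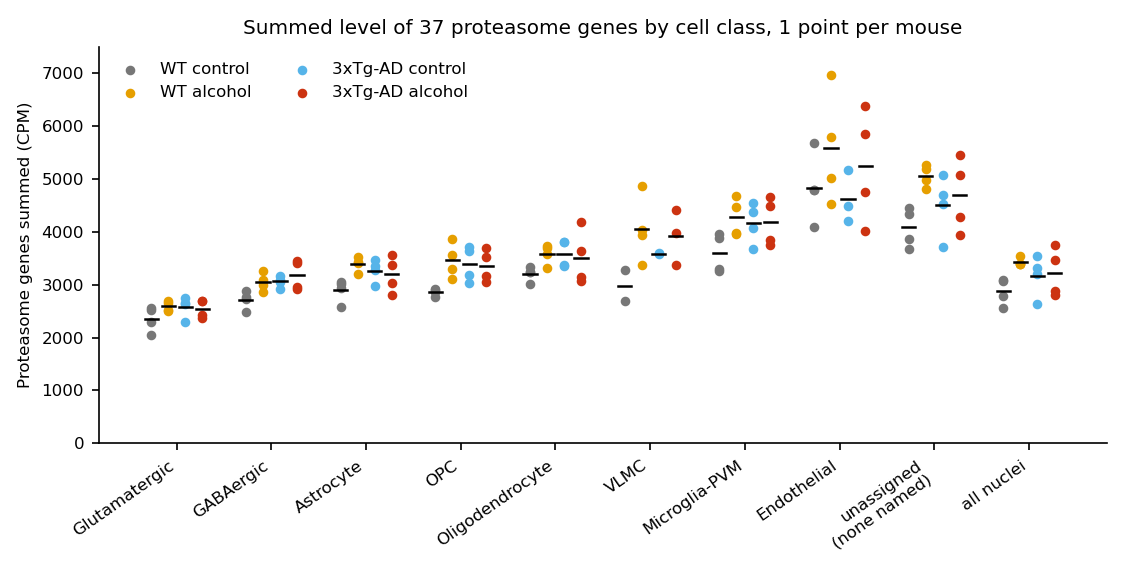
Summed level of the 37 proteasome genes by cell class, in CPM of the class (vertical axis). Each point is 1 mouse, colored by group, and each bar is a group mean. Glutamatergic neurons sit lowest (mean 2520 CPM) and endothelial cells highest (mean 5102 CPM).

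Among neurons, L5 ET neurons, the pyramidal cells that project below the cortex, had 2348 CPM and L2/3 IT neurons, the upper-layer pyramidal cells, 2378 CPM, a pair that kept its order in only 10 of 16 mice. L6 CT neurons, which project to the thalamus, had 2890 CPM and stood above L2/3 IT neurons in 16 of 16. The near-projecting L5/6 NP neurons (3086 CPM) overlapped the interneurons, which ran from 2891 CPM in Pvalb through 2940 CPM in Sst and 2990 CPM in Sncg to 3176 CPM in Lamp5 and 3254 CPM in Vip cells. Of 46737 glutamatergic nuclei, 9147 were named L2/3 IT, 7303 L6 CT, 5162 L5 ET and 2287 L5/6 NP. The rest got no subtype name, and no cluster was named as IT neurons of the deeper layers. The summed level of a class is a share of the RNA counted in its nuclei, and other RNA moved with it. Transcripts of excitatory neurons were counted in every class: Camk2a, a kinase transcript found in their processes, had 625 CPM in glutamatergic neurons, 858 CPM in astrocytes, 730 CPM in endothelial cells and 658 CPM in microglia, and Slc17a7, the vesicular glutamate transporter, had 703 CPM in glutamatergic neurons and 352, 382 and 493 CPM in the same 3 classes. Malat1, a nuclear noncoding RNA, took 233820 CPM in glutamatergic neurons, 209183 CPM in astrocytes, 96259 CPM in microglia and 63143 CPM in endothelial cells, while cytosolic ribosomal protein genes took 14205, 28228, 38047 and 79107 CPM in the same order. The part of these differences in the proteasome levels was not tested. In the unassigned nuclei the proteasome genes reached 4587 CPM ± 578, with 78229 CPM of Malat1, 46780 CPM of ribosomal protein genes and 1992 CPM of Camk2a.

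Most subunits, 27 of 35, had their lowest mean in glutamatergic neurons, with VLMCs left out. Of the 35 genes, 32 had a higher mean in GABAergic than in glutamatergic neurons, 29 in astrocytes, 29 in oligodendrocytes, 28 in OPCs, 32 in microglia and 31 in endothelial cells, and 29 were highest in endothelial cells. The endothelial class held 278 nuclei of 15 mice and 2571 UMIs of the proteasome genes. Its means of single genes thus rest on few UMIs. The size of the difference varied between and within the roles. In microglia relative to glutamatergic neurons, the median ratio was 2.58 for the catalytic beta genes, 2.71 for the inducible Psmb10, 2.38 for the structural beta genes and 1.97 for the alpha ring, against 1.83 for the ATPases, 1.48 for the non-ATPases and 1.22 for the assembly chaperones. The median over all 35 genes was 1.83. Single genes of the roles overlapped: the ratio ran from 2.5 to 2.63 in the catalytic beta genes, from 2.0 to 2.62 in the structural beta genes, from 0.90 to 2.51 in the alpha ring, from 1.12 to 2.36 in the ATPases, from 1.02 to 2.15 in the non-ATPases and from 0.63 to 2.67 in the 3 chaperones, of which Psmd10 was the highest and Psmd9 the lowest. The differences between roles were not tested.

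**Figure D2:**
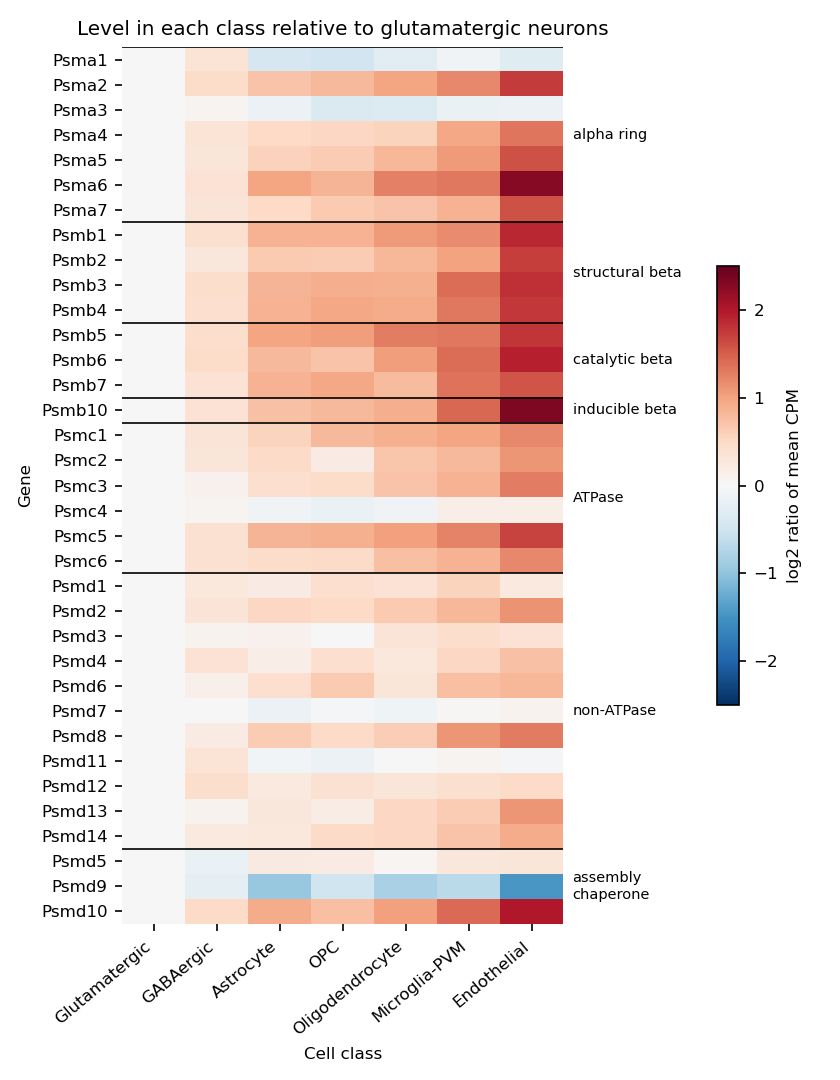
Level of each of the 35 measured proteasome genes in each cell class relative to glutamatergic neurons, as the log2 ratio of mean CPM over mice (color), with genes grouped by role. Psmb10 and Psma6 span the widest ranges (5.02 and 4.84 times), and Psmd9 is lower in every other class shown.

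The widest range belonged to Psmb10, which rises in many cells with interferon: it went from 28.1 CPM in glutamatergic neurons through 76.2 CPM in microglia to 141 CPM in endothelial cells, 5.02 times. The alpha ring gene Psma6 spanned 4.84 times (32.2 to 156 CPM), the chaperone Psmd10 4.01 times (8.25 to 33.1 CPM), the catalytic Psmb6 3.84 times (49.4 to 190 CPM) and the structural Psmb1 3.70 times (70.9 to 262 CPM), each from glutamatergic neurons to endothelial cells. The endothelial end of these ranges rests on few UMIs, the fewest for genes with a low level such as Psmd10. The catalytic Psmb5 went from 53.1 CPM ± 11.8 in glutamatergic neurons through 105 CPM ± 29.5 in astrocytes to 133 CPM ± 51.6 in microglia and 183 CPM ± 60.7 in endothelial cells. Psmb7, the third catalytic gene, had 48.5 CPM in glutamatergic neurons, 89.0 CPM in astrocytes and 125 CPM in microglia.

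Other subunits were nearly flat or turned the other way. The non-ATPase Psmd7, the partner of the deubiquitinase subunit, kept within 1.18 times (124 CPM in astrocytes to 146 CPM in endothelial cells), the ATPase Psmc4 within 1.26 times and Psma3 within 1.35 times (258 CPM in OPCs to 348 CPM in GABAergic neurons). Psmd9, a chaperone of the ATPase ring, ran against the sum: it was highest in glutamatergic neurons (73.4 CPM) and lowest in endothelial cells (26.7 CPM), and astrocytes stood below glutamatergic neurons in 16 of 16 mice. Psma1, an alpha ring gene with a high level, was highest in GABAergic neurons (173 CPM) and lower in astrocytes (102 CPM) than in glutamatergic neurons (137 CPM) in all 16 mice. Levels of a gene that overlaps another may hold reads of both, since the handling of strand is not stated in the sources used here: Psmb10 lies over its whole 2710 bases opposite Gm16156, and Psmb7 shares 6571 bases with Nek6 on the opposite strand. Psmd9 shares 61459 bases with Gm26745 and 10921 with Hpd on the opposite strand, and neither gene has a row of counts. Psmd9 also shares 2888 bases on that strand with Gm43409, which does have a row of counts. Psma2 shares 8943 bases with AW209491 on the same strand.

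The groups were compared with UMIs summed per mouse. Over all nuclei, the summed level of the proteasome genes was 2875 CPM ± 248 (SD, n = 4) in WT control, 3433 CPM ± 75.2 in WT alcohol, 3174 CPM ± 383 in 3xTg-AD control and 3223 CPM ± 460 in 3xTg-AD alcohol mice. WT control mice 26, 27, 28 and 36 had 2565, 2784, 3066 and 3084 CPM, and WT alcohol mice 6, 7, 17 and 18 had 3396, 3391, 3399 and 3546 CPM. 3xTg-AD control mice 12, 13, 14 and 21 had 2639, 3204, 3537 and 3317 CPM, and 3xTg-AD alcohol mice 4, 31, 33 and 34 had 3461, 2802, 3753 and 2876 CPM. Every WT alcohol mouse lay above every WT control mouse, whereas both 3xTg-AD groups were spread over the range of the WT groups. Of the 3xTg-AD alcohol mice, mouse 33 also lay above that range. The lowest values of both control groups were those of the 3 mice with high Gm42418, mice 26, 27 and 12. Without these mice WT control had 3066 and 3084 CPM. The 3xTg-AD control mice then had 3204 to 3537 CPM, beside the mean of 3223 CPM in 3xTg-AD alcohol. The part of these libraries in the group levels was not tested, and the class means below include them. In the sum over all nuclei alone, fewer cells of a type and less RNA per cell cannot be told apart, and levels within classes follow below. Ribosomal protein genes moved the same way, at 22404, 27408, 23316 and 25083 CPM in the 4 groups in the order above, and unassigned nuclei, which had a high proteasome level, numbered 9117 of 25391 nuclei in WT control and 13381 of 31362 in WT alcohol mice. Their part in the proteasome levels was not tested. Within classes WT control and WT alcohol mice averaged 2358 and 2594 CPM in glutamatergic and 2717 and 3048 CPM in GABAergic neurons. Astrocytes had 2894 and 3390 CPM, OPCs 2863 and 3462 CPM, oligodendrocytes 3209 and 3585 CPM and microglia 3601 and 4274 CPM. Endothelial cells had 4837 and 5583 CPM, VLMCs 2982 (2 mice) and 4053 CPM and unassigned nuclei 4084 and 5066 CPM. These mice overlapped in the glutamatergic, GABAergic, oligodendrocyte and endothelial classes only.

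**Figure D3:**
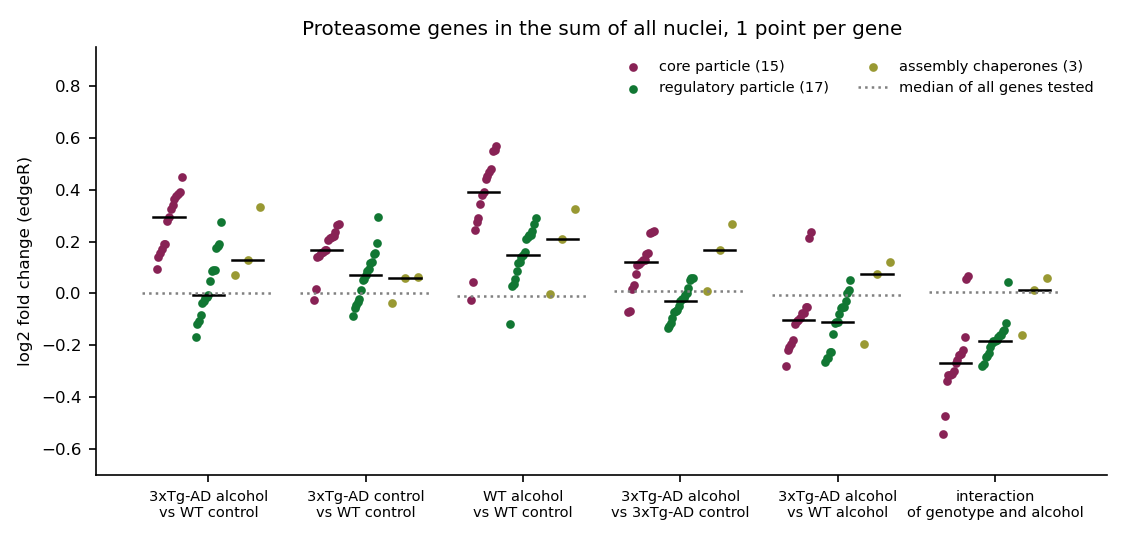
Log2 fold change of each measured proteasome gene over all nuclei in each of the 6 comparisons (edgeR), with genes as points colored by core particle, regulatory particle and assembly chaperones, black bars at their medians and a dotted line at the median of all genes. Core particle genes lie mostly above 0 in WT alcohol relative to WT control (median 0.39).

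The combination of the 3xTg-AD genotype and alcohol was compared with WT control, which asks for the joint difference. In 3 cell classes a proteasome gene was higher: Psmb5 in astrocytes, Psmb2 in glutamatergic neurons and Psma3 in GABAergic neurons. These were 3 of the 202 pairs of gene and class, all higher, at an adjusted p of at most 0.05 in edgeR's quasi-likelihood test, beside 1.9% of all tested pairs called in either direction and 0.751% called higher, and 35 of the 202 had an unadjusted p below 0.05 beside 14.5% of all pairs. DESeq2 called 5, adding Psmd9 and Psma3 in glutamatergic neurons, beside 2.55% of all pairs by DESeq2. The share of proteasome genes called by edgeR lay between these 2 background values.

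**Figure D4:**
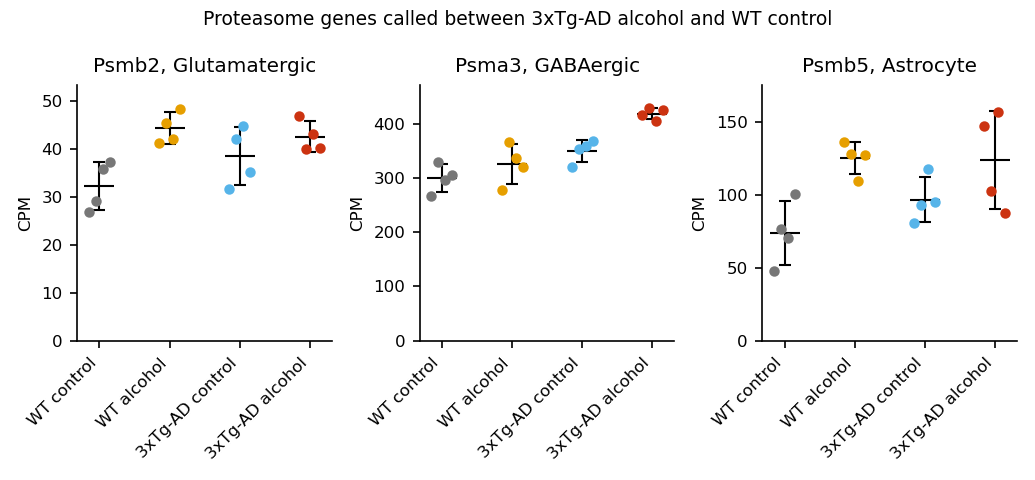
Level in CPM (vertical axis) in each mouse of the 4 groups for the 3 proteasome genes called in 3xTg-AD alcohol relative to WT control mice: Psmb5 in astrocytes, Psmb2 in glutamatergic neurons and Psma3 in GABAergic neurons. Points are mice, horizontal bars are group means and whiskers are the SD (n = 4). For Psma3 the 3xTg-AD alcohol mice (405 to 429 CPM) lie above all others.

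Psma3 (chr12:70974621-70996347, plus strand), in GABAergic neurons, had 267, 330, 296 and 305 CPM in the WT control mice and 277, 365, 337 and 321 CPM in the WT alcohol mice. It had 321, 353, 359 and 368 CPM in the 3xTg-AD control mice and 416, 429, 405 and 425 CPM in the 3xTg-AD alcohol mice. Each 3xTg-AD alcohol mouse lay above each of the other 12 mice. The log2 fold change to WT control was 0.44 (SE 0.12, edgeR adjusted p = 0.0414). Relative to WT alcohol it was 0.37 (adjusted p = 0.186), relative to 3xTg-AD control 0.25 (adjusted p = 0.501), and the test of the interaction of genotype and alcohol gave 0.18 (adjusted p = 0.997). Without the 3 mice with high Gm42418 the adjusted p was 0.033 (edgeR). The call was lost when the ribosomal RNA-associated share entered the fit as a covariate (edgeR adjusted p = 0.0725) and when nuclei with the highest doublet scores were left out (adjusted p = 0.0605). It was also lost in 10 of 16 fits that left out a single mouse (adjusted p up to 0.115 in edgeR): WT control mouse 26, 28 or 36, any of the 4 3xTg-AD alcohol mice, WT alcohol mouse 18 or 3xTg-AD control mouse 13 or 21, while the log2 fold change stayed between 0.41 and 0.51. The gene overlaps 4733 bases of 3110056K07Rik on the opposite strand, which in GABAergic neurons had 83.3 to 94.3 CPM in 3xTg-AD alcohol and 44.2 to 82.4 CPM in WT control mice, so that reads of the 2 genes may not be separable.

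Psmb2 (chr4:126677630-126709714, plus strand), a structural beta subunit, had 26.9, 29.0, 35.9 and 37.3 CPM in glutamatergic neurons of the WT control mice. It had 46.9, 39.9, 43.0 and 40.2 CPM in the 3xTg-AD alcohol mice, without overlap. WT alcohol mice had 41.1, 45.5, 42 and 48.4 CPM, also all above WT control, and 3xTg-AD control mice had 31.7, 42.1, 44.8 and 35.2 CPM, across both. The log2 fold change of 3xTg-AD alcohol to WT control was 0.41 (SE 0.11, edgeR adjusted p = 0.0404) and that of WT alcohol to WT control 0.43 (adjusted p = 0.236), a pair of comparisons that share the WT control mice. Before adjustment over all genes, the p of edgeR was 0.00115 in the first and 0.000908 in the second. The call was lost without the 3 mice with high Gm42418 (adjusted p = 0.124, edgeR), with the covariate (adjusted p = 0.176) and with coarser clusters (adjusted p = 0.0608). It was lost in 7 of 16 fits that left out a single mouse (adjusted p up to 0.0989 in edgeR), which were WT control mouse 26, 27 or 28, WT alcohol mouse 7 and 3xTg-AD alcohol mouse 4, 33 or 34, while the log2 fold change stayed between 0.36 and 0.47.

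Psmb5 (chr14:54614119-54618022, minus strand), which carries the chymotrypsin-like site and is the target of proteasome inhibitor drugs, had 47.6, 76.3, 70.6 and 100 CPM in astrocytes of the WT control mice. The 3xTg-AD alcohol mice had 147, 102, 157 and 87.7 CPM and overlapped them. WT alcohol mice had 136, 128, 110 and 127 CPM and did not overlap WT control mice, and 3xTg-AD control mice had 80.6, 93.0, 118 and 95 CPM. The log2 fold change of 3xTg-AD alcohol to WT control was 0.76 (SE 0.18, edgeR adjusted p = 0.0179), and that of WT alcohol to WT control 0.72 (adjusted p = 0.157). The first call was lost without the 3 mice with high Gm42418 (adjusted p = 0.164, edgeR) and with the covariate (adjusted p = 0.249), and in 4 of 16 fits without a single mouse (adjusted p up to 0.142), which were WT control mouse 26 or 28 and 3xTg-AD alcohol mouse 4 or 33. The log2 fold change over the 16 fits was 0.61 to 0.92.

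Over all nuclei, edgeR called none of the 35 genes in 3xTg-AD alcohol relative to WT control, beside 4.06% of all genes, 7 had an unadjusted p below 0.05 beside 20.1% of all genes (3 beside 20.7% with the covariate), and DESeq2 called 3 (Psmb2, Psmd9 and Psma3), beside 7.34% of all genes by DESeq2. The median log2 fold change was 0.16 with 26 of 35 above 0, beside a median of 0.0035 over all genes and 0.12 over ribosomal protein genes (0.20 without the 3 mice with high Gm42418). Single mice moved the median: it was 0.026 without 3xTg-AD alcohol mouse 33 and 0.082 without mouse 4. The core particle and the regulatory particle had different medians: the 15 core genes had a median of 0.29 and all 15 lay above 0, whereas the 17 genes of the regulatory particle had a median of -0.0052 with 8 above 0, a difference that was not tested. Without the 3 mice with high Gm42418 these medians were 0.28 with 14 of 15 above 0 and 0.08 with 12 of 17 above 0, and with the covariate they were 0.17 with 13 above 0 and 0.04 with 10 above 0. The most extreme genes were Psmb2 at 0.45 (edgeR adjusted p = 0.0648) and Psmd1, a large scaffold of the regulatory particle, at -0.17 (adjusted p = 0.469). Over all nuclei every 3xTg-AD alcohol mouse lay above every WT control mouse in 2 of the 35 genes, Psmd9 and Psma3, beside 4.23% of all genes. Psmd9 had 44.8, 58.7, 53.9 and 59.5 CPM in WT control and 64.6, 69.2, 67.7 and 75.0 CPM in 3xTg-AD alcohol mice. By class, such genes were 4 of 33 in microglia beside 2.79% of all genes and 3 of 26 in OPCs beside 2.49%. Glutamatergic neurons had 3 beside 3.32%, astrocytes 2 beside 2.46% and GABAergic neurons 1 beside 4.04%. Oligodendrocytes had 2 of 33 beside 2.52%, and endothelial cells 0 of 5 beside 3.48%. Only Psmd1 in glutamatergic neurons was lower without overlap, beside 6.13% of all genes.

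Alcohol in WT mice, the comparison of WT alcohol with WT control, gave log2 fold changes above 0 for most proteasome genes and none past the threshold. edgeR called none of the 35 genes over all nuclei, beside 0.0179% of all genes, and none of the 202 pairs over the classes, beside 0.0258% of all tested pairs. At an unadjusted p below 0.05 there were 14 genes over all nuclei, beside 14.2% of all genes, and 27 of the 202 pairs, beside 10.2%. The 14 genes became 6 without the 3 mice with high Gm42418 and 5 with the ribosomal RNA-associated covariate, beside 11.6% and 11.9% of all genes in these fits. DESeq2 called Psmb2, over all nuclei beside 0.602% of all genes and in glutamatergic neurons beside 0.201% of all pairs over the classes. The median log2 fold change over all nuclei was 0.23 with 32 of 35 above 0, beside -0.01 over all genes and 0.23 over ribosomal protein genes. The 15 core genes had a median of 0.39, with 14 above 0 and 11 at an unadjusted p below 0.05, whereas the 17 regulatory genes had a median of 0.15, with 16 above 0 and 2 at that level. Without the 3 mice the core median was 0.30, with 15 above 0 and 5 at that level, and the regulatory median was 0.17, with 16 above 0 and none at that level. With the covariate the core median was 0.27, with 15 above 0 and 3 at that level, and the regulatory median was 0.15, with 15 above 0 and 2 at that level.

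All 7 constitutive beta genes lay above 0 in this comparison. Psmb5 had the highest log2 fold change over all nuclei, 0.57 (SE 0.20, edgeR adjusted p = 0.279), with 60.3, 67.4, 81.0 and 93.3 CPM in WT control and 128, 110, 103 and 119 CPM in WT alcohol mice. The groups did not overlap. Psmb7 was at 0.47 (SE 0.19, adjusted p = 0.308 in edgeR), Psmb10 at 0.39 (SE 0.16, adjusted p = 0.309) and Psmb6 at 0.35 (SE 0.15, adjusted p = 0.321). Psmd7 was lowest at -0.12 (adjusted p = 0.676 in edgeR). In 18 of the 35 genes every WT alcohol mouse lay above every WT control mouse, beside 6.61% of all genes, and in none below, beside 2.64%. The 18 were Psma2, Psma4, Psma5, Psma6, Psma7, the 7 beta genes Psmb1 to Psmb7, Psmc2, Psmc3, Psmc5, Psmc6, Psmd6 and Psmd14. Without the 3 mice with high Gm42418 it was 20 genes, beside 10.4% of all genes, in a comparison that then holds 2 WT control mice. By class the same pattern was thinner, with 6 genes without overlap in glutamatergic neurons beside 2.65% of all genes, 6 in astrocytes beside 2.75%, 3 in GABAergic neurons beside 3.61%, 2 of 33 in oligodendrocytes beside 3.13%, 1 of 26 in OPCs beside 3.09%, none of 33 in microglia beside 3.47% and none of 5 in endothelial cells beside 3.31%. In GABAergic neurons Psmd14 went the other way, with every WT alcohol mouse below every WT control mouse, beside 2.29% of all genes.

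The genotype without alcohol, 3xTg-AD control relative to WT control, gave no called gene. edgeR called none of the 35 genes over all nuclei, beside 0.435% of all genes, and none of the 202 pairs, beside 0.242%, and DESeq2 called none in either, beside 1.19% and 0.419%. No gene had an unadjusted p below 0.05 over all nuclei, beside 8.18% of all genes, and 11 of 202 pairs did, beside 6.97%. The median log2 fold change was 0.12 with 28 of 35 above 0 (0.077 without 3xTg-AD control mouse 14), and ribosomal protein genes were at 0.0099. Leaving out the 3 mice with high Gm42418 put both the ribosomal protein genes and the proteasome genes at 0.17. The extremes were the ATPases Psmc4 at 0.29 (edgeR adjusted p = 0.659) and Psmc5 at -0.09 (adjusted p = 0.961). Over all nuclei only the deubiquitinase Psmd14 had every 3xTg-AD control mouse above every WT control mouse, beside 1.53% of all genes.

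Alcohol in the 3xTg-AD mice, 3xTg-AD alcohol relative to 3xTg-AD control, gave no called gene either, over all nuclei beside 0.483% of all genes and over the 202 pairs beside 0.272%, and DESeq2 also called none, beside 2.36% and 0.89%. The number with an unadjusted p below 0.05 was 1 over all nuclei, beside 12% of all genes, and 7 over the pairs, beside 9.49%. The median was 0.02 with 21 of 35 above 0, and ribosomal protein genes were at 0.12. Without the 3 mice with high Gm42418, of which mouse 12 is in the control group, the median was -0.016 with 15 of 35 above 0, ribosomal protein genes were at 0.022, and 12 of 205 pairs had an unadjusted p below 0.05, beside 12% of all pairs. With single mice left out the median ran from -0.067 (without 3xTg-AD alcohol mouse 33) to 0.091 (without mouse 31). Psmd9 was highest at 0.27 (SE 0.10, edgeR adjusted p = 0.238) and the non-ATPase Psmd12 lowest at -0.13 (adjusted p = 0.684). Over all nuclei no gene separated the 2 groups of mice upward, beside 2.46% of all genes, or downward, beside 4.32%.

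Between the alcohol groups, 3xTg-AD alcohol relative to WT alcohol, edgeR and DESeq2 called none of the genes over all nuclei, beside 0.942% of all genes by edgeR and 2.51% by DESeq2, and none of the 202 pairs, beside 0.592% and 0.864%. At an unadjusted p below 0.05 there were 2 genes over all nuclei, beside 14% of all genes, and 12 pairs, beside 9.78%. The 2 genes became 4 without the 3 mice with high Gm42418, beside 18.8% of all genes. The median was -0.10 with 7 of 35 above 0, but 0.0033 without 3xTg-AD alcohol mouse 31, -0.045 without mouse 34, -0.21 without mouse 33 and -0.058 without WT alcohol mouse 18, and ribosomal protein genes were at -0.12. Psma3 was highest at 0.24 (SE 0.10, edgeR adjusted p = 0.280), and Psmb7 lowest at -0.28 (adjusted p = 0.539). Over all nuclei Psma1 and Psma3 had every 3xTg-AD alcohol mouse above every WT alcohol mouse, beside 3.54% of all genes, and Psmd1 had every one below, beside 6.53%. For Psma3 these were 340, 343, 333 and 355 CPM against 261, 318, 306 and 299 CPM.

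The interaction, which tests whether alcohol acted differently in the 2 genotypes, called none of the 35 genes over all nuclei, beside 0.0% of all genes, and none of the pairs, beside 0.00596%, in edgeR, and none in DESeq2, beside 0.00596% in both. An unadjusted p below 0.05 was reached by 1 gene over all nuclei, beside 3.48% of all genes, and by 7 pairs, beside 4.13% (11 of 205 without the 3 mice with high Gm42418, beside 4.4%). The median was -0.21 with 5 of 35 above 0 (3 of 35 without the 3 mice with high Gm42418), so that the difference between alcohol and control was lower in the 3xTg-AD than in the WT mice in 30 of 35 genes without passing the test in any. Ribosomal protein genes were at -0.12, and at -0.26 without the 3 mice. Without 3xTg-AD alcohol mouse 31 the median of the proteasome genes was -0.11 and without mouse 33 it was -0.32. Psmb7 was lowest at -0.54 (SE 0.27, edgeR adjusted p = 0.944), with 51.0, 85.2, 103 and 93.3 CPM in 3xTg-AD control and 83.4, 59.0, 101 and 66.2 CPM in 3xTg-AD alcohol mice. WT control mice had 48.6, 54.1, 85.8 and 84.0 CPM of Psmb7 and WT alcohol mice 96.3, 92.1, 94.9 and 101 CPM, so that WT alcohol mice lay above all WT control mice and every other pair of groups overlapped.

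Outside the symbol rule, 44 partner genes were looked up under 46 symbols (Shfm1 and AI314180 are older names of Sem1 and Ecpas). They were assembly chaperones, further regulatory subunits, activators, the inducible subunits, transcription factors, ubiquitin genes and shuttles. All 44 passed the filter over all nuclei, and edgeR called 4 of them in 3xTg-AD alcohol relative to WT control, all higher, beside 4.06% of all genes. All 4 belong to the immunoproteasome and its activator. Psmb8, the inducible counterpart of Psmb5, was at a log2 fold change of 1.53 (SE 0.29, edgeR adjusted p = 0.00688), and Psmb9, the counterpart of Psmb6, at 1.87 (SE 0.50, adjusted p = 0.0428). Psme1 and Psme2, which form the PA28 activator ring, were at 0.46 (SE 0.12, edgeR adjusted p = 0.0442) and 0.49 (SE 0.13, adjusted p = 0.0455). Psmb8 was also called in 3xTg-AD alcohol relative to WT alcohol mice (1.24, SE 0.28, edgeR adjusted p = 0.0370), where it was the single partner called, beside 0.942% of all genes. This second call was lost in 8 of 16 fits without a single mouse (edgeR adjusted p up to 0.137): any of the 4 WT alcohol mice, 3xTg-AD control mouse 13 or 21 and 3xTg-AD alcohol mouse 33 or 34. Its log2 fold change over the 16 fits was 0.92 to 1.42. The call of Psmb8 relative to WT control held in all 16 (adjusted p of at most 0.0267).

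Psmb8 had 1.86, 2.08, 1.93 and 2.79 CPM in WT control, 2.12, 3.09, 2.56 and 3.13 CPM in WT alcohol and 2.34, 3.58, 4.54 and 3.50 CPM in 3xTg-AD control mice. In the 3xTg-AD alcohol mice it had 4.12, 4.19, 6.96 and 10.1 CPM, above all WT mice and above 3 of the 4 3xTg-AD control mice. Psmb9 had 1.41, 1.87, 2.98 and 3.38 CPM in the 3xTg-AD alcohol mice and 0 to 1.46 CPM in the other 12, on 0 to 18 UMIs per mouse in these and 24 to 50 in the former. A single 3xTg-AD control mouse overlapped them. Relative to 3xTg-AD control, 3xTg-AD alcohol was at 0.88 for Psmb8 (edgeR adjusted p = 0.159) and 1.19 for Psmb9 (adjusted p = 0.284). Neither was called. For 3xTg-AD control relative to WT control the values were 0.65 and 0.69 (edgeR adjusted p = 0.592 and 0.846), also not called. The test of the interaction gave 0.59 for Psmb8 and 1.05 for Psmb9 (edgeR adjusted p = 0.944 for both). Psmb10, the inducible subunit among the proteasome genes of the rule, had a log2 fold change of 0.17 in 3xTg-AD alcohol relative to WT control (SE 0.16, edgeR adjusted p = 0.599), with 46.47, 34.62, 50.17 and 40.01 CPM against 32.70, 30.04, 43.76 and 44.98 CPM. These values overlapped.

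Microglia, in which Psmb8 and Psmb9 had a higher level than over all nuclei, also differed in pooled number between the groups. Named microglia and perivascular macrophages were 480 of 25391 nuclei in WT control, 654 of 31362 in WT alcohol, 779 of 27433 in 3xTg-AD control and 1095 of 30326 in 3xTg-AD alcohol mice. Per mouse the share ran from 0.975% to 2.568% in WT control and from 1.12% to 2.98% in WT alcohol mice. It ran from 2.37% to 3.15% in 3xTg-AD control and from 2.567% to 5.15% in 3xTg-AD alcohol mice, so that all groups overlapped. Over all nuclei the summed level of the 11 microglial markers ran from 94.2 to 146 CPM in WT control, from 146 to 195 CPM in WT alcohol, from 116 to 208 CPM in 3xTg-AD control and from 169 to 264 CPM in 3xTg-AD alcohol mice. Of these markers 10 had a higher mean in 3xTg-AD alcohol than in WT control mice, and at most 1 was at 0 in any mouse. The 9 endothelial markers were at 48.0 to 65.7 CPM in 3xTg-AD alcohol and 39.9 to 86.4 CPM in WT control mice, with 4 of 9 higher. Within microglia Psmb8 ran from 0 to 58.1 CPM in WT control, from 13.6 to 35.6 CPM in WT alcohol, from 33.9 to 48.8 CPM in 3xTg-AD control and from 32.7 to 70.8 CPM in 3xTg-AD alcohol mice, on 0 to 18 UMIs per mouse, and the 2 3xTg-AD groups overlapped. It did not pass the count filter there and was not tested. In endothelial cells it averaged 75.0, 97.1, 65.0 and 184 CPM in the same order, on 5 to 27 UMIs per group, with 3 mice in the 3xTg-AD control group. Of the 380 Psmb8 UMIs of the 3xTg-AD alcohol mice, 45 were in microglia, 27 in endothelial cells and 149 in unassigned nuclei. Over all nuclei outside the microglia and endothelial classes, which still hold the unassigned nuclei (a sum made after the data were seen), Psmb8 had 2.93, 3.51, 6.18 and 8.40 CPM in the 3xTg-AD alcohol mice and 1.38, 1.89, 1.75 and 2.08 CPM in the WT control mice, without overlap. WT alcohol mice had 1.72 to 2.75 CPM of it there and 3xTg-AD control mice 1.72 to 3.92 CPM. Psmb9 had 0.84, 1.15, 2.61 and 2.64 CPM over these nuclei in 3xTg-AD alcohol and 0.29 to 0.83 CPM in WT control mice. WT alcohol mice had 0 to 0.84 CPM of Psmb9 there. The 3xTg-AD control mice had 0.33 to 1.05 CPM and overlapped the 3xTg-AD alcohol mice.

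**Figure D5:**
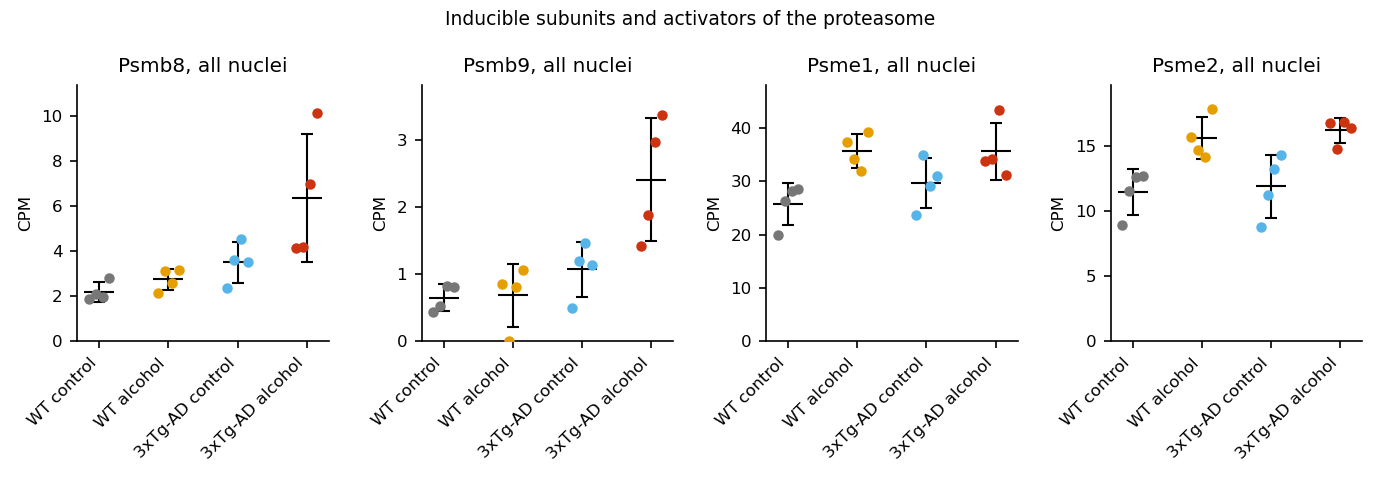
Level in CPM over all nuclei (vertical axes) in each mouse of the 4 groups for the inducible subunits Psmb8 and Psmb9 and the activator genes Psme1 and Psme2. Points are mice, horizontal bars are group means and whiskers are the SD (n = 4). Psmb8 lies between 4.12 and 10.1 CPM in the 3xTg-AD alcohol mice and reaches 3.13 CPM in the WT mice.

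Psme2 had 16.8, 14.8, 16.9 and 16.4 CPM in 3xTg-AD alcohol and 8.93, 11.5, 12.7 and 12.7 CPM in WT control mice, without overlap. The WT alcohol mice, at 15.7, 14.7, 14.2 and 17.9 CPM, also lay above WT control (0.41, SE 0.13, edgeR adjusted p = 0.259). Psme1 was at 0.43 in WT alcohol relative to WT control (SE 0.12, edgeR adjusted p = 0.254). In 3xTg-AD alcohol relative to WT alcohol it was at 0.027 (edgeR adjusted p = 0.943). Without the 3 mice with high Gm42418, the calls of Psme1, Psme2 and Psmb9 relative to WT control were lost (adjusted p of 0.102, 0.0931 and 0.142 in edgeR), and that of Psmb8 held at 0.0372. With the covariate the same 3 calls were lost (0.205, 0.265 and 0.204) and Psmb8 had an edgeR adjusted p of 0.0491. With single mice left out, the calls of Psme1, Psme2 and Psmb9 were lost in 13, 12 and 12 of 16 fits (adjusted p up to 0.134, 0.119 and 0.113 in edgeR), among them each of the 4 WT control mice and 3xTg-AD alcohol mice 33 and 34 for all 3 genes. Their log2 fold changes over the 16 fits were 0.34 to 0.51, 0.43 to 0.56 and 1.67 to 2.06. Nfe2l1, the transcription factor of the subunit genes, was at -0.31 (SE 0.11, edgeR adjusted p = 0.112) in the same comparison. It had 170, 133, 174 and 143 CPM in 3xTg-AD alcohol and 198, 167, 194 and 200 CPM in WT control mice, which overlapped. In the unassigned nuclei Psmb8 was also called in 3xTg-AD alcohol relative to WT control (1.43, SE 0.33, edgeR adjusted p = 0.0457). That call was lost without the 3 mice with high Gm42418 (1.48, adjusted p = 0.133), with the covariate (1.41, adjusted p = 0.244) and in 12 of 16 fits without a single mouse (edgeR adjusted p up to 0.135). The 4 fits that kept it left out WT control mouse 27, WT alcohol mouse 17, 3xTg-AD control mouse 12 or 3xTg-AD alcohol mouse 4.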

How the data were processed

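The prefrontal cortex of 16 mice was profiled by droplet snRNA-Seq with a 3′ kit. The authors aligned reads to mm10 with Cell Ranger 6.1.1, based on STAR, and deposited the raw UMI counts per gene and nucleus with no normalization; the handling of introns and strand is not given in the sources used here. UMI counting removes amplification copies, but the counts remain a sample whose precision follows the depth, from 9622031 to 17544364 UMIs per mouse. The authors named cell types with Azimuth and tested counts summed per cell type and sample with DESeq2; those names were not used here. The proteasome genes, the partner list and the tests were chosen with earlier results of these data known.

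Nuclei were clustered without the proteasome genes (scanpy 1.11.5, 2000 variable genes, 30 components, 20 neighbours, Leiden resolution 1.5), and clusters were named where at least 3 markers and a share of 0.5 of a fixed list were raised 1.5 times. A doublet caller marked 48 nuclei (0.0419%), which is too few for it to have worked, so that no doublets were removed. UMIs were summed per mouse and class, with classes of under 10 nuclei in a mouse left out for that mouse. Group means of the 4 groups were fitted to all genes that passed filterByExpr with edgeR 4.0.16 (TMM, robust quasi-likelihood, Benjamini-Hochberg adjustment within each class and comparison, threshold 0.05). Separate animals are the replicates. Levels are CPM of the class and were described without a test. The procedure was tested on simulated data. Genes named with values are those called, the highest and lowest in each comparison, the catalytic and inducible beta genes, the widest and narrowest across classes, the highest and lowest counts, and the called partners with Psmb8, Psmb9, Psme1, Psme2 and Nfe2l1. The alternatives were DESeq2 1.42.0, other size factors, no count filter, a filter on nuclei (500 genes, at most 5% mitochondrial UMIs), no high doublet scores, resolution 0.8, leaving out each mouse or the 3 mice with high Gm42418, and the ribosomal RNA-associated share as covariate. The mouse numbers are identifiers and pair no animals. Gene positions are those of GENCODE M21 (mm10), and motifs were searched as letters in RefSeq promoters.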

Additional observations from a re-analysis of the deposited data

Results flagged for a closer look

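In 64 groups of 4 mice tested, the values of 2 held a mouse far from the other 3 by Dixon's criterion, where chance gives about 1 in 20. The summed level of the proteasome genes over all nuclei was 3546 CPM in WT alcohol mouse 18, beside 3391 to 3399 CPM in the other 3 mice of that group. Psmb10 over all nuclei was 25.73 CPM in 3xTg-AD control mouse 12, beside 42.24 to 44.74 CPM in the other 3. Mouse 12 is among the 3 mice with high Gm42418, and the part of this in its Psmb10 level was not tested.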

How the results depend on the processing

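The direction of the 3 calls held under every alternative run, but their side of the threshold did not. In 3xTg-AD alcohol relative to WT control, where 3 pairs of gene and class were called, DESeq2 called 5, the fit with the ribosomal RNA-associated share as covariate called 0, and leaving out the 3 mice with high Gm42418 gave 1 (Psma3 in GABAergic neurons). Leaving out single mice gave 0 to 4, with 0 without WT control mouse 26, WT control mouse 28 or 3xTg-AD alcohol mouse 33, and 1 without 3xTg-AD alcohol mouse 4 or 34. The share of all pairs called in the covariate fit and in the fits without mice is not given here. A loss particular to the proteasome genes thus cannot be told apart from fewer calls over all genes. Psmb2 was also lost at Leiden resolution 0.8 (edgeR adjusted p = 0.0608) and Psma3 without the highest doublet scores (adjusted p = 0.0605), and Psme2 over all nuclei without the count filter (0.0519), with the filter on nuclei (0.0508) and without the highest doublet scores (0.0552). In WT alcohol relative to WT control, DESeq2 called 1 (Psmb2 in glutamatergic neurons) where edgeR called 0, and the other 4 comparisons stayed at 0 under every alternative. The calls of single genes were lost in 4 (Psmb5), 7 (Psmb2) and 10 (Psma3) of 16 fits without a single mouse, and those of the partner genes in 0 to 13. The cause of these differences was not tested. The median log2 fold change of 3xTg-AD control to WT control, 0.12, was 0.089 with the covariate and 0.17 without the 3 mice with high Gm42418. Leaving out single mice, that median ranged from 0.077 to 0.14, and the medians of the other comparisons ranged from 0.026 to 0.23 (3xTg-AD alcohol to WT control, lowest without mouse 33), from 0.19 to 0.26 (WT alcohol to WT control), from -0.067 to 0.091 (3xTg-AD alcohol to 3xTg-AD control), from -0.21 to 0.00328 (3xTg-AD alcohol to WT alcohol) and from -0.32 to -0.11 (interaction). The number of genes with every WT alcohol mouse above every WT control mouse, 18, was 18 to 21 with single mice left out, beside 7.59% to 13.2% of all genes in place of 6.61%, an alternative chosen after seeing the data. The summed levels of the classes moved by less than the SD between mice under all alternatives. The endothelial class held few nuclei, 9 to 34 per mouse, and 5 of the proteasome genes could be tested in it. No paired analysis was possible because the mouse numbers are unique identifiers and no number is shared between groups.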
